A study of Mus musculus with 8 samples.

Results

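The regions described here are the 500 peaks with the densest H3K27ac signal in control AKP mouse colon cancer organoids, out of 22130 peaks within set length limits and 22731 peaks in all. Density was the mean of the 3 control libraries in counts per 1000000 reads in peaks (CPM), divided by peak width in kb. Peaks of at least 500 bp and under 12.5 kb were ranked by it and the first 500 taken, so the control density itself is what chose them and is given as a description only. Of the 500, 427 lay off chromosome 5 and 73 on it, and these are kept apart because the peaks of chromosome 5 as a group were lower in the knockout libraries.

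The study profiled H3K27ac by CUT&RUN in organoids of genotype AKP (control, 3 libraries) and in Gata6KO_AKP organoids (knockout, 3 libraries), in 8 samples that also include 1 H3K4me3 and 1 IgG library of AKP organoids, not analysed here. Both groups share the AKP background, whose alleles the labels do not spell out. The labels name C57Bl6 as the recipient mice and do not say how Gata6 was deleted, whether a line is 1 clone, or whether replicates came from separate cultures. The p-values therefore speak only of the variation among these libraries, which may be technical.

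H3K27ac is acetylation of a lysine on the tail of histone H3, placed by the coactivators p300 and CBP at active promoters and enhancers. In CUT&RUN an antibody tethers a nuclease that releases the DNA around the mark, so a dense peak is a region where many released fragments come from a short stretch. GATA6 is a zinc finger transcription factor found in the epithelium of the gut that binds GATA sites in enhancers and promoters. The deposited table pairs peaks with no genes, and no annotation or sequence of its build, mm9, was used here, so peaks are named by position and it is not known here which of them are promoters or enhancers.

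Reads in peaks numbered 5141856 to 7026388 per control library and 5495414 to 6196455 per knockout library. Each of the 22731 peaks was tested with edgeR's quasi-likelihood test, adjusted by Benjamini-Hochberg over all of them, with a call at an adjusted p under 0.05. Off chromosome 5, 8.10% of peaks were called lower in the knockout and 12.3% higher. On it, 33.8% were called lower and 4.46% higher, and its median log2 fold change was -0.26. No IgG background was subtracted, so each density includes whatever background lies under the peak.

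The 500 peaks formed the upper end of a narrow distribution. Control density ran from 19.5 to 59.5 CPM per kb among them, with a median of 21.3, while the median of all peaks within the length limits was 10.6 CPM per kb. The 500th peak was thus 1.84 times as dense as the median peak and the first 5.60 times as dense. Only 15 of the 500 exceeded 30 CPM per kb and 73 exceeded 25 CPM per kb. The last 3 taken had 19.5402, 19.5397 and 19.5313 CPM per kb, and the first 3 left out had 19.5017, 19.4897 and 19.4843 CPM per kb, so the limit falls where neighbouring ranks differ by far less than the spread between libraries.

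The densest peak in control organoids lay on chromosome 17 from 13501175 to 13502818, a stretch of 1644 bp with its nearest neighbouring peak 78617 bp away. Control replicates 1 to 3 held 60.5, 60.5 and 57.5 CPM per kb, and knockout replicates 1 to 3 held 50.9, 51.8 and 37.9 CPM per kb. All 3 knockout libraries lay below the controls, and the peak was also the densest by the knockout mean. It fell by 0.36 ± 0.10 on the log2 scale (SE; adjusted p = 0.00218 by edgeR's quasi-likelihood test), a call lost without knockout replicate 3 (adjusted p = 0.139).

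Next came a peak on chromosome 12 from 83384409 to 83386577, with 44.7, 43.2 and 49.9 CPM per kb in the 3 control libraries, in the order of their replicate numbers, and 32.1, 36.7 and 47.3 CPM per kb in the 3 knockout libraries. The groups overlapped there, through knockout replicate 3. Its log2 fold change was -0.26 ± 0.09 (SE; adjusted p = 0.0333 by edgeR's quasi-likelihood test), and the adjusted p was 0.0635 with trended offsets and 0.0906 by DESeq2's test. Leaving out control replicate 1 or 3 or knockout replicate 1 or 2 also ended this call, with adjusted p-values of 0.0551, 0.237, 0.386 and 0.135 in that order. On chromosome 4, the peak from 61516170 to 61517778 held 39.0, 34.3 and 41.0 CPM per kb in control and 35.5, 30.1 and 37.7 CPM per kb in knockout libraries, overlapping groups with no call (adjusted p = 0.370).

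Ranks 4 to 12 lay on chromosomes 8, 9, 10, 17, 14, 16, 9, 9 and 7, at 37.3 to 30.6 CPM per kb. Among them, the peak on chromosome 14 from 69884407 to 69893060 was the only one of the 12 called higher in the knockout. It was also the widest of the 12, at 8654 bp. Control libraries held 36.1, 31.7 and 32.8 CPM per kb and knockout libraries 41.6, 38.2 and 36.4 CPM per kb, with every knockout library above every control. The log2 fold change was 0.20 ± 0.05 (SE; adjusted p = 0.00222 by edgeR's quasi-likelihood test), and the adjusted p was 0.0902 without knockout replicate 1.

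A peak on chromosome 8 from 127223206 to 127227809 fell by 0.24 ± 0.07 on the log2 scale (SE), from 37.3 ± 3.03 to 31.8 ± 1.21 CPM per kb (SD, n = 3 each; adjusted p = 0.00714 by edgeR). That call was lost without control replicate 2 (adjusted p = 0.112). The peak on chromosome 9 from 64187760 to 64189394 was called lower with 34.6 ± 3.08 and 26.2 ± 3.31 CPM per kb (SD, n = 3 each; adjusted p = 0.00817 by edgeR), and the call was lost without control replicate 3 (adjusted p = 0.0854) or knockout replicate 1 (adjusted p = 0.0533). The peak on chromosome 16 from 58522624 to 58524534 was called lower with 32.0 ± 2.84 and 24.9 ± 2.47 CPM per kb (SD, n = 3 each; adjusted p = 0.0120 by edgeR). Without control replicate 3, knockout replicate 2 or knockout replicate 3 its adjusted p was 0.123, 0.0615 or 0.0646. The other 5 of ranks 4 to 12 were not called. Each of the 6 calls among the 12 densest peaks was thus lost when some single library was left out.

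**Figure D1:**
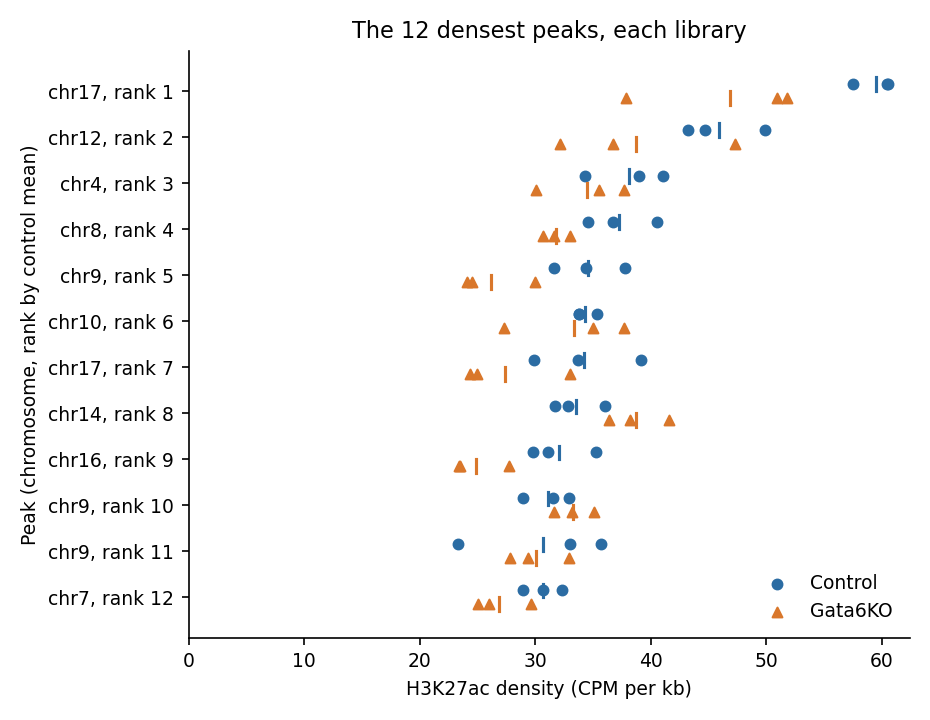
H3K27ac density (x axis, CPM per kb) of the 12 peaks with the highest control mean, listed by chromosome and rank. Circles are the 3 control and triangles the 3 knockout libraries, and vertical bars are group means; the first peak stands at 59.5 CPM per kb in control and 46.9 CPM per kb in knockout libraries, and only rank 8, on chromosome 14, has every knockout library above the controls.

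Density was almost unrelated to width: Spearman's rho between them was 0.0649 over the 22130 peaks, which share the same libraries. The 500 densest had a median width of 2791.5 bp, from 625 to 12432 bp, against 2647 bp for all peaks within the limits. They comprised 154 of the 5827 peaks under 2 kb, 180 of the 11072 from 2 kb to under 4 kb and 166 of the 5231 of 4 kb or more. The narrow and the wide class thus each held a larger share of dense peaks than the middle one, which the rank correlation does not show. Together they covered 1.82 Mb, or 2.50% of the length of all peaks within the limits, and took up 4.03%, 4.06% and 4.09% of the reads in peaks of control replicates 1 to 3.

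Depth differed strongly with width. The narrow peaks had a median of 166 counts per library, those from 2 kb to under 4 kb 334, and the wide ones 760. The SD of log2 density between control libraries had a median of 0.17 for the narrow, 0.12 for the intermediate and 0.08 for the wide dense peaks, so a small difference is better measured in the wide ones. Even counts made up 90.2% of the values of the 500, against 86.6% over all peaks within the limits. Whether each read pair was counted once or as 2 reads is not stated in the labels; if as 2, counting error is wider than the counts imply.

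The dense peaks were spread over the genome. They fell in 195 of the 276 windows of 10 Mb that held any peak within the limits, and on every chromosome with peaks except 4 unplaced or random contigs. On the autosomes other than 5, between 1.28% (chromosome 15) and 3.02% (chromosome 1) of the peaks within the limits were among the 500. Chromosome 12 followed with 2.90% and chromosome 14 with 2.50%. Chromosome X had 1 of its 134 peaks among them, from 166504994 to 166506468, with 25.6 ± 4.17 CPM per kb in control and 23.2 ± 1.05 CPM per kb in knockout libraries (SD, n = 3 each).

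Chromosome 5 held 73 of the 500, or 14.6%, with 8.11% of the peaks within the limits, and 4.07% of its peaks were among the 500. Its median density over all 1795 peaks within the limits was 12.02, 11.87 and 11.67 CPM per kb in the 3 control libraries, above every other autosome in the control mean. In the 3 knockout libraries it was 10.2, 10.2 and 10.1 CPM per kb, below every other autosome in the knockout mean. When the 500 densest peaks were chosen by the mean of all 6 libraries, chromosome 5 held 40, and when chosen by the 3 knockout libraries, 24. Single control libraries put 66 to 71 chromosome 5 peaks among their own 500 densest, and single knockout libraries 20 to 24, with no overlap between the groups.

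**Figure D2:**
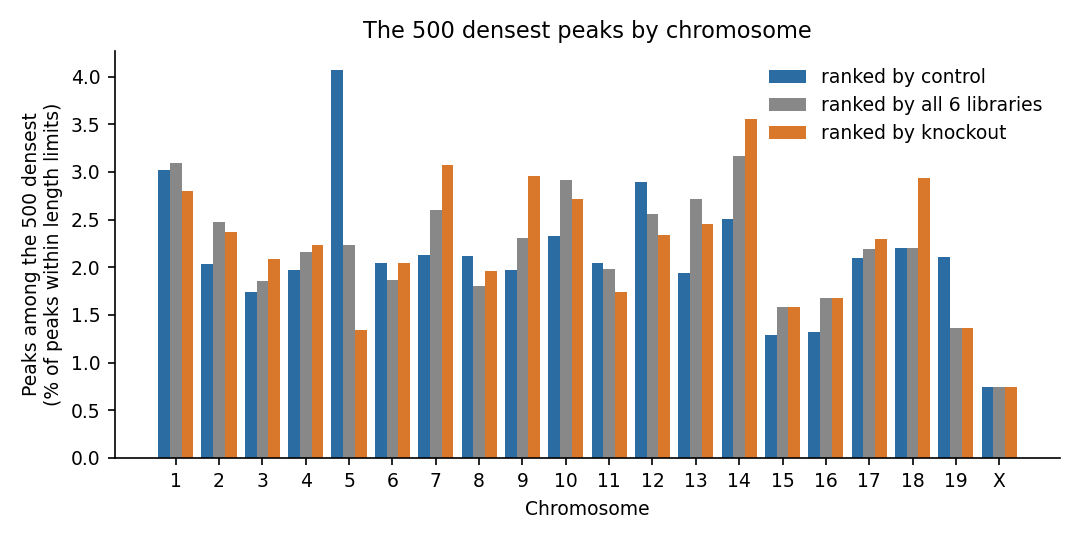
Share of each chromosome's peaks within the length limits (y axis, percent) that were among the 500 densest, ranked by the mean of the control libraries, of all 6 libraries or of the knockout libraries; 1 bar per ranking, with no error bars since each is a count. Chromosome 5 has 4.07%, 2.23% and 1.34% under the 3 rankings.

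The most members in 1 window were found at the far end of chromosome 5, from 140 to 150 Mb, where 12 of 239 peaks were among the 500. The first 10 Mb of chromosome 5 had the highest share of any of the 40 windows with the most dense peaks, 8 of 43 peaks or 18.6%. Off chromosome 5, 9 of 258 peaks from 120 to 130 Mb on chromosome 8 and 7 of 76 peaks from 60 to 70 Mb on chromosome 4 were among them. Windows differ in how many peaks they hold, and no test of these counts was made.

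Neighbouring peaks lay about as close to the dense peaks as to others. The median gap to the nearest peak was 3086 bp, against 3865.5 bp over all peaks within the limits, and the median number of other peaks within 50 kb was 4 in both. A gap of at most 1 kb was found for 28.6% of the dense peaks and 22.7% of all, and a gap of over 50 kb for 11% and 9.11%. Most stood alone in their rank class: 447 had no other member as the next peak on either side, while 53 stood next to another member, in 23 pairs, 1 group of 3 and 1 group of 4.

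The group of 4 lay on chromosome 14 from 69873505 to 69908395, around the peak of rank 8 described above, with gaps of at most 1118 bp. Its summed level was 935, 925 and 901 CPM in the control libraries and 968, 926 and 946 CPM in the knockout libraries. The ranges overlapped, and only the rank 8 peak was called. The group of 3 lay on chromosome 9 from 121220898 to 121248198, where the sums were 360, 376 and 365 CPM in control and 356, 361 and 357 CPM in knockout libraries, again overlapping, with 1 peak called lower.

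The control libraries chose the members, so the rule itself favours a smaller overlap in the knockout libraries. Each single control library placed 370 to 376 of the 500 among its own 500 densest peaks, which in part follows from its use in choosing them. Knockout libraries, which did not, placed 210 to 218 there. By the knockout mean, 242 of the 500 were still among the 500 densest and 414, or 82.8%, among the densest 10% of peaks, while 7 lay below the median peak. Of the 258 that left the 500, 57 lay on chromosome 5.

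In their place by the knockout mean came 258 other peaks, 8 of them on chromosome 5. Their median control rank was 1313.5 and the lowest was 21692, near the bottom of the 22130 peaks. Of these 258, 152 were called higher in the knockout, beside 11.6% of all peaks, a count that the choice by high knockout density favours.

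Off chromosome 5, 101 of the 427 peaks were called lower in the knockout, or 23.7%, and 20 higher, or 4.68%, beside 8.10% and 12.3% of all peaks off chromosome 5. The median log2 fold change was -0.11, with quartiles at -0.30 and 0.02 and a range from -1.44 to 0.56, against a median of 0.01 over all peaks off chromosome 5. In 126 of the 427, all 3 knockout libraries lay below the 3 controls, and in 36 above, beside 13.1% and 19.1% of all peaks off chromosome 5. The members took 3.88%, 3.89% and 3.94% of reads off chromosome 5 in the control libraries and 3.62%, 3.61% and 3.62% in the knockout libraries. The share called higher was 2.58% without control replicate 1 and 3.04% without control replicate 2 or any single knockout library. Since peaks that are high in the control libraries were the ones chosen, nothing about dense peaks as a class is read from these lower values.

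**Figure D3:**
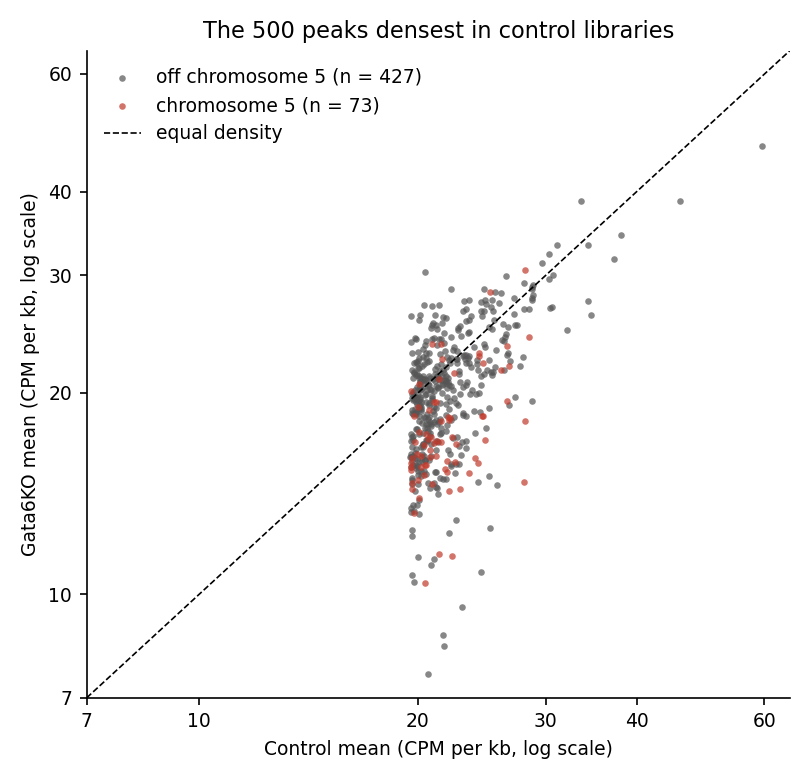
Mean density in the 3 control libraries (x axis) against the 3 knockout libraries (y axis), both in CPM per kb on log scales, for the 427 peaks off chromosome 5 (grey) and the 73 on it (red). The dashed line marks equal density; points start at 19.5 CPM per kb on the x axis because the peaks were chosen there, while knockout means run from 7.61 to 46.9 CPM per kb.

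The lower median depended on which libraries chose the peaks. When 2 control libraries chose the 500 densest and the remaining control library was left for the comparison, the library left out already lay below the choosing libraries, by a median log2 ratio of -0.07, -0.05 and -0.05 for held-out control replicates 1, 2 and 3 (off chromosome 5, 430 to 434 peaks). Against the choosing libraries the knockout mean had medians of -0.14, -0.11 and -0.13. Against the held-out library these were -0.03, -0.05 and -0.07, while all peaks within the limits off chromosome 5 had medians of 0.04, 0.03 and 0.03 in the same ratio. The median ratio of knockout to held-out control was thus slightly below 0 in each of the 3 choices. It was less so than with the libraries that chose the peaks. Control libraries still made each choice, which favours peaks that are higher in the control group, so no fall at dense peaks is read from this. The 3 choices share most of their peaks, and no test was made of these ratios.

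When all 6 libraries chose the 500 densest peaks, both groups entering alike, 460 lay off chromosome 5 and the direction was the other one. Of these, 33 were called lower (7.17%) and 77 higher (16.7%), with a median of 0.03, beside 8.10% and 12.3% over all peaks off chromosome 5. Chosen by the knockout libraries, higher calls outnumbered lower ones: 7 of 476 were lower (1.47%) and 170 higher (35.7%), with a median of 0.19. Chosen by all 6, the off-chromosome-5 peaks took 4.14%, 4.13% and 4.22% of reads off chromosome 5 in control and 4.29%, 4.30% and 4.28% in knockout libraries. The groups did not overlap. The two-sided exact permutation p was 0.1, and 3 against 3 libraries cannot give a smaller one. Any full separation of the groups gives this value, in either direction, so it decides nothing about direction.

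The same dependence ran through the whole range of densities. Ranked by control density, the median log2 fold change off chromosome 5 went from 0.57 in the 10% of peaks with the lowest density to -0.10 in the densest. By knockout density it went from -0.23 to 0.17. By all 6 libraries it stayed between -0.03 and 0.14, and the densest 10% had a median of 0.03, with 9.01% called lower and 14.8% higher.

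**Figure D4:**
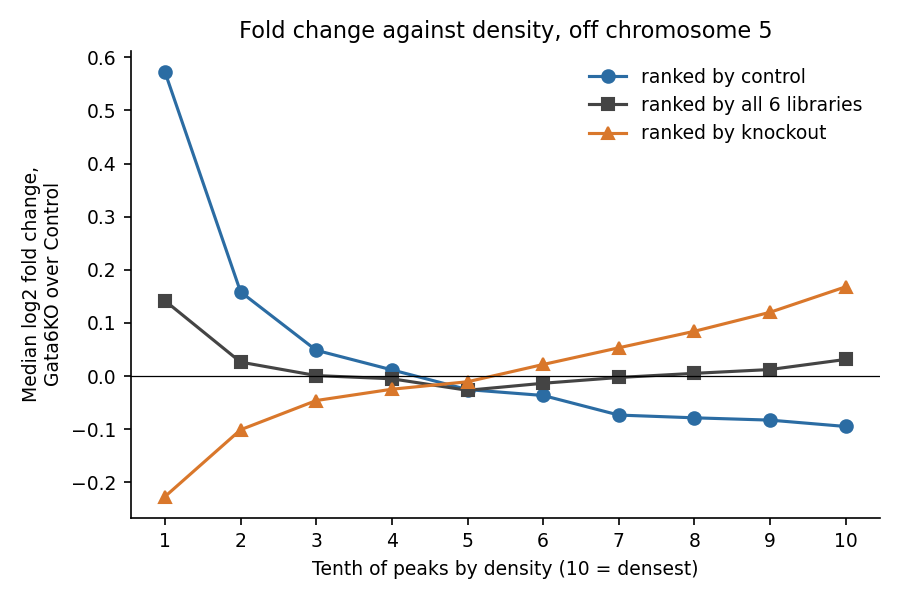
Median log2 fold change of knockout over control (y axis) in 10 equal classes of peaks within the length limits by density (x axis, 10 is the densest), off chromosome 5, with peaks ranked by the control, all 6 or the knockout libraries. Each point is a median over 1928 to 2145 peaks; the densest class stands at -0.10, 0.03 and 0.17 in that order.

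Of the 427 peaks off chromosome 5, 322 were also among the 500 densest by all 6 libraries. Among these 322, 33 were called lower (10.2%) and 20 higher (6.21%), with a median of -0.05. Over all peaks off chromosome 5, these shares were 8.10% and 12.3%. The shared set held all 20 members called higher and 33 of the 101 called lower, a split that the choice itself favours, since a dense control peak that rises stays dense in the mean of all libraries and one that falls tends to drop out.

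Of those 33, 3 fell by 1.5-fold or more, and they are named here after their values were seen. On chromosome 11, the peak from 105995332 to 105997077 held 27.2, 24.1 and 24.0 CPM per kb in control and 16.6, 15.4 and 13.1 CPM per kb in knockout libraries, a log2 fold change of -0.75 ± 0.15 (SE; adjusted p = 1.39e-05 by edgeR). On chromosome 13, the peak from 93106626 to 93107623 went from 25.7 ± 4.78 to 14.6 ± 2.96 CPM per kb, and on chromosome 4 the one from 119286294 to 119287423 went from 24.2 ± 1.56 to 14.7 ± 2.70 CPM per kb (SD, n = 3 each). All 3 were under 2 kb wide, and in each every knockout library lay below every control.

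By width, peaks under 2 kb showed the lowest median under the control choice, -0.18, with 22 of 134 called lower (16.4%) and 2 higher (1.49%) off chromosome 5, beside 2.90% and 10.4% of all peaks of that width there. Peaks from 2 kb to under 4 kb had a median of -0.11, with 43 of 154 lower (27.9%) and 6 higher (3.90%), beside 7.40% and 12.4% of all of that width. Peaks of 4 kb or more had a median of -0.05, with 36 of 139 lower (25.9%) and 12 higher (8.63%), beside 13.3% and 13.9%. Under the choice by all 6 libraries, the medians were -0.01, 0.01 and 0.08 in the same order. Peaks under 2 kb then had 9 of 140 lower (6.43%) and 12 higher (8.57%). For that width, the share lower was above its background of 2.90% and the share higher below its 10.4%. Peaks from 2 kb to under 4 kb had 13 of 162 lower (8.02%) and 27 higher (16.7%). The wide peaks then stood at 11 of 158 lower (6.96%) and 38 higher (24.1%), where all 4723 wide peaks off chromosome 5 had 13.3% lower and 13.9% higher. With trended offsets, which let the scaling vary with the mean count, the wide peaks so chosen had 8 lower (5.06%) and 50 higher (31.6%), beside 11.6% and 15.7% of all wide peaks off chromosome 5 under the same offsets. No test of these differences was made.

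By rank within the 500, the median log2 fold change off chromosome 5 was -0.12 for ranks 1 to 100, -0.10 for ranks 101 to 300 and -0.10 for ranks 301 to 500. In the same order, 21.4%, 24.6% and 23.8% were called lower and 1.19%, 5.85% and 5.23% higher, with no test of the difference between ranks. The peaks next to the dense ones were not free of the rule either. Each lay beside a peak chosen by control values, and neighbours within the length limits that were as dense in control libraries were members themselves. Off chromosome 5, 459 other peaks lay within 12.5 kb of a member as its next neighbour. Of these, 43 were called lower (9.37%) and 37 higher (8.06%), with a median of 0.01, beside 8.10% and 12.3% of all peaks off chromosome 5. The share called higher was thus the smaller one beside its background, and no test of the difference was made.

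Among the members off chromosome 5 that fell, the peak on chromosome 14 from 12936644 to 12938050 changed most. Control replicates 1 to 3 held 20.7, 20.5 and 20.7 CPM per kb and knockout replicates 5.70, 6.47 and 10.7 CPM per kb. The controls were nearly equal, all knockout libraries lay far below them, and knockout replicate 3 was the highest of those. This was a 2.71-fold lower density, with a log2 fold change of -1.44 ± 0.21 (SE; adjusted p = 3.28e-10 by edgeR's quasi-likelihood test), and the rank went from 319 to 20155 of 22130.

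The next peaks were deeper and had smaller SEs, although their control libraries spread more. On chromosome 3, the peak from 86953007 to 86958710, 5704 bp wide, held 23.8, 19.6 and 21.7 CPM per kb in control and 8.43, 8.68 and 8.04 CPM per kb in knockout libraries. Its knockout libraries agreed closely and lay far below the lowest control, and its log2 fold change was -1.39 ± 0.10 (SE; adjusted p = 6.06e-40 by edgeR). On chromosome 12, the peak from 112665416 to 112671692, 6277 bp wide, went from 24.4 ± 3.14 to 10.8 ± 1.06 CPM per kb (SD, n = 3 each). Its log2 fold change was -1.19 ± 0.09 (SE; adjusted p = 2.12e-38 by edgeR), and it went from rank 89 to rank 10817.

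Chromosome 12 held 2 more of the 10 strongest falls. From 37107781 to 37109112, density was 20.6, 18.1 and 26.3 CPM per kb in control and 7.06, 9.56 and 9.45 CPM per kb in knockout libraries, 2.49-fold lower. From 18555480 to 18557527 it was 19.1, 23.6 and 16.3 CPM per kb against 9.19, 12.3 and 10.6 CPM per kb, 1.84-fold lower. Both pairs of groups were apart, although the controls of each spread widely.

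The peak on chromosome 16 from 90884870 to 90887290 held 27.4, 19.9 and 21.7 CPM per kb in control and 8.78, 12.6 and 7.27 CPM per kb in knockout libraries, 2.41-fold lower. On chromosome 8, the peak from 126425593 to 126427077, of rank 68, went from 25.2 ± 0.858 to 12.6 ± 0.947 CPM per kb and the one from 110012511 to 110015481 from 20.9 ± 0.374 to 11.1 ± 0.260 CPM per kb (SD, n = 3 each). On chromosome 1, densities were 19.8 ± 0.422 and 10.4 ± 0.621 CPM per kb from 33524308 to 33525860, and 21.0 ± 4.73 and 11.3 ± 0.969 CPM per kb from 135566010 to 135568251 (SD, n = 3 each). None of the 10 was among the 500 densest by all 6 libraries. They entered through the same control values that the test sets against the knockout, a choice that favours falls, so their calls and adjusted p-values, here and above, describe these peaks and support nothing further.

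Rises among the members were smaller, and the choice by high control density works against finding them. The peak on chromosome 9 from 75226310 to 75228687 rose most, from 20.1, 20.9 and 20.2 CPM per kb in the control to 28.2, 32.0 and 30.7 CPM per kb in the knockout libraries. The groups lay well apart, and the peak went from rank 351 to rank 13. Its log2 fold change was 0.56 ± 0.12 (SE), a 1.48-fold higher density (adjusted p = 2.90e-05 by edgeR's quasi-likelihood test). No member off chromosome 5 was called with a rise of 1.5-fold or more, while 21 were called with a fall of that size, beside 7.28% and 2.40% of all peaks off chromosome 5.

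The strongest evidence for a rise came from a wide peak on chromosome 11, from 100144831 to 100153721 (8891 bp). It held 20.1, 19.6 and 20.7 CPM per kb in control and 23.4, 26.0 and 29.0 CPM per kb in knockout libraries, with a log2 fold change of 0.36 ± 0.06 (SE; adjusted p = 5.48e-07 by edgeR). On chromosome 1, the peak from 36958608 to 36962880 held 20.7, 20.2 and 17.7 CPM per kb in control and 24.0, 27.9 and 26.2 CPM per kb in knockout libraries (adjusted p = 0.000148 by edgeR). On chromosome 13, the peak from 37648105 to 37655499 held 19.8, 21.5 and 22.1 CPM per kb in control and 27.8, 25.7 and 24.9 CPM per kb in knockout libraries (adjusted p = 0.000286 by edgeR). In all of them every knockout library was above every control.

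The remaining 6 of the 10 strongest rises were 1.22-fold to 1.33-fold and less secure. The peak on chromosome 7 from 26360058 to 26362496 went from 20.4 ± 2.22 to 27.1 ± 2.21 CPM per kb (SD, n = 3 each; adjusted p = 0.00599 by edgeR), and the adjusted p was 0.0646 without control replicate 1. On chromosome 15 from 84812935 to 84815476, the values were 21.4 ± 1.26 and 27.1 ± 1.66 CPM per kb (SD, n = 3 each), and the adjusted p of 0.0234 by edgeR became 0.0747, 0.0862 and 0.121 without control replicate 1, control replicate 2 or knockout replicate 2. On chromosome 4 from 139531698 to 139536364, they were 19.8 ± 1.20 and 24.2 ± 1.36 CPM per kb (SD, n = 3 each; adjusted p = 0.0122 by edgeR), with 0.0504 to 0.0585 without control replicate 2 or 3 or knockout replicate 1 or 3.

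On chromosome 1 from 58414793 to 58417054, density was 20.1 ± 1.09 and 25.7 ± 0.542 CPM per kb (SD, n = 3 each; adjusted p = 0.0276 by edgeR), and 0.0664 to 0.0892 without control replicate 2 or 3 or knockout replicate 2 or 3. On chromosome 7 from 87925920 to 87927802, it was 22.2 ± 4.08 and 28.6 ± 1.03 CPM per kb (SD, n = 3 each; adjusted p = 0.0391 by edgeR), with the call lost without each library except control replicate 3 and, at 0.0571, in a fit without chromosome 5. On chromosome 6 from 86436671 to 86438571, it was 19.9, 21.1 and 21.9 CPM per kb in control and 22.9, 27.2 and 30.9 CPM per kb in knockout libraries (adjusted p = 0.0366 by edgeR), with the call lost without control replicate 1 or 2 or knockout replicate 2 or 3 and, at 0.0532, in the same fit.

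**Figure D5:**
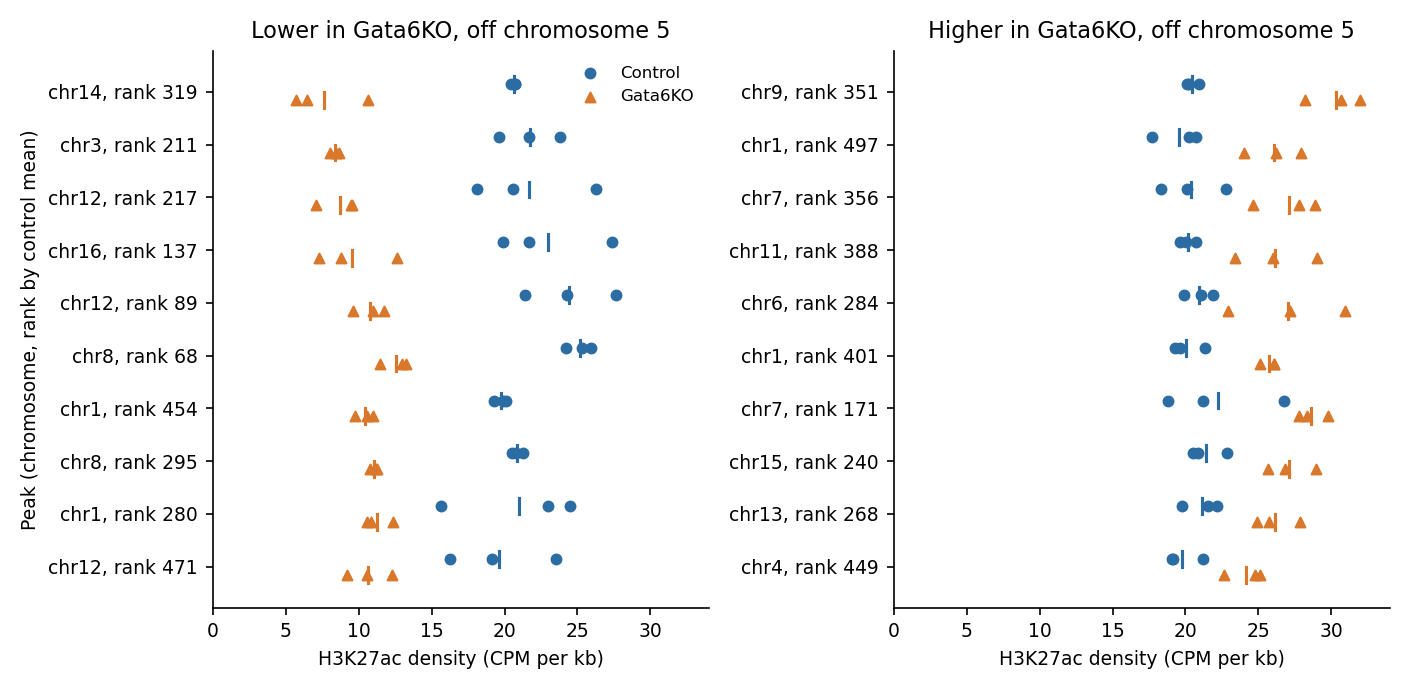
Density (x axes, CPM per kb) of the 10 members off chromosome 5 with the largest falls (left) and rises (right) among called peaks whose groups do not overlap, listed by chromosome and control rank. Circles are the 3 control and triangles the 3 knockout libraries, bars are group means; the falls reach 7.61 CPM per kb and the rises 30.3 CPM per kb in the knockout mean.

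The 12 wide members called higher off chromosome 5 lay on 10 chromosomes, and their log2 fold changes ran from 0.19 to 0.41. Chromosomes 14 and 4 held 2 each. Besides those given above, they were found on chromosome 8 from 125106053 to 125113276 (21.6 to 25.5 CPM per kb, control to knockout mean), on chromosome 17 from 27929386 to 27937649 (20.9 to 24.1 CPM per kb) and on chromosome 2 from 33058651 to 33065515 (19.6 to 23.8 CPM per kb), among others.

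On chromosome 5, 37 of the 73 members were called lower (50.7%) and 0 higher, beside 33.8% and 4.46% of all peaks on the chromosome. In 66 of the 73 the log2 fold change was below 0, beside 78.9% of all its peaks. The members' median was -0.34, against -0.26 over all chromosome 5 peaks. In 43 of the 73 all knockout libraries lay below the controls, beside 42.1% of all its peaks. The members' shares that were lower exceeded those of all its peaks, which the choice by high control density favours. With the chromosome's median shift removed, 11 were called lower and 5 higher, beside 8.70% and 11.4% of all its peaks, and the median was -0.08. Chosen by all 6 libraries, the 40 dense peaks on chromosome 5 had a median of -0.16, and 0.09 with the shift removed, with 5 lower and 7 higher. As off the chromosome, the sign relative to its shift thus went with the choice of libraries.

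Along chromosome 5, the median log2 fold change of the dense peaks was below 0 in every 10-Mb window that held any, from -0.59 to -0.16. Over all peaks within the length limits it was also below 0 in every window, from -0.51 to -0.06. From 140 to 150 Mb, 10 of 12 members were called lower, and 3 of the 12 were still called lower with the shift removed. Their median was -0.42, against -0.27 over all peaks within the limits there. From 120 to 130 Mb, 3 of 8 were called lower, while 3 of 8 were higher with the shift removed and 0 lower. Here the medians were -0.20 and -0.30. Calls over all peaks were not counted by window. Over the whole chromosome 33.8% were called lower, and with the shift removed 8.70% lower and 11.4% higher. Reads on chromosome 5 fell in its members at 5.27%, 5.50% and 5.43% in control and 5.17%, 5.27% and 5.09% in knockout libraries, with overlapping ranges.

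Beyond the shift, the peak on chromosome 5 from 116456885 to 116458900 fell most. It went from 20.4 ± 1.40 to 10.4 ± 1.13 CPM per kb (SD, n = 3 each), with knockout libraries between 9.29 and 11.6 CPM per kb, a log2 fold change of -0.98 ± 0.16 (SE) and of -0.73 ± 0.16 with the shift removed (SE; adjusted p = 8.97e-05 by edgeR's quasi-likelihood test). Near the start of the chromosome, the peaks from 3340611 to 3345712 and from 3470803 to 3475132 had shift-removed log2 fold changes of -0.72 ± 0.10 and -0.65 ± 0.11 (SE). The first held 20.9, 21.8 and 24.2 CPM per kb in control and 11.95, 10.13 and 12.15 CPM per kb in knockout libraries, so that its groups lay far apart. From 140742445 to 140744058, the value was -0.68 ± 0.15 (SE) with 28.0 and 14.7 CPM per kb in the group means, and from 149151937 to 149155263 it was -0.42 ± 0.11 (SE) with 22.8 and 14.4 CPM per kb. Control values chose these peaks too, a choice that favours falls. Their calls and adjusted p-values therefore describe these peaks and support nothing further.

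A pair of adjacent members went the other way. From 122973852 to 122981187, density was 25.2, 24.1 and 26.1 CPM per kb in control and 28.4, 29.9 and 26.8 CPM per kb in knockout libraries, and from 122965622 to 122971041 it was 20.73, 19.99 and 22.06 CPM per kb and 22.6, 26.2 and 22.3 CPM per kb. In both, every knockout library was above every control. Without removing the shift neither was called (adjusted p = 0.0594 and 0.146 by edgeR). With it removed their log2 fold changes were 0.42 ± 0.07 and 0.42 ± 0.08 (SE; adjusted p = 9.35e-09 and 7.38e-06 by edgeR).

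The other 3 members higher beyond the shift lay from 32268469 to 32271020 (0.38 ± 0.12, SE), from 35340230 to 35341896 (0.37 ± 0.13, SE) and from 124496154 to 124503272 (0.31 ± 0.07, SE). Their unshifted log2 fold changes were 0.12, 0.12 and 0.05, none of them called, and their groups overlapped. The first lost its shift-removed call without control replicate 1 or knockout replicate 2 (adjusted p = 0.0907 and 0.0856 by edgeR), and the second without control replicate 3 or knockout replicate 1 (adjusted p = 0.129 and 0.102).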

How the data were processed

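Values are raw counts, deposited by the authors without normalization, for 1 peak set across 6 libraries. Alignment was to mm9 with Bowtie, Picard, SAMtools, SEACR and bedtools named, per the submitters' processing notes; for roles, versions and the merging of peaks the sources used here give nothing. CPM was the count over the library's sum in peaks, times 1000000. Fold changes came from edgeR 4.0.16 in R 4.3.3: TMM factors (0.994 to 1.01), a quasi-likelihood fit over all 22731 peaks on group alone, tested two-sided, with Benjamini-Hochberg adjustment and calls under 0.05. The low-count filter removed no peak. The common dispersion gave a coefficient of variation of 11.4%. Scaling to reads in peaks hides any change common to all of them. For shift-removed values, chromosome 5's median log2 fold change (-0.26) was taken off as an offset. The fit was tested on simulated data. Alternatives were DESeq2 1.42.0, DESeq2 size factors, total counts, trended offsets (loess, span 0.3), a replicate block, each library left out, and other choices of members. The 500 peaks, tests and alternatives were chosen with earlier results of these data known. Peaks named are the 12 densest, the 10 called members per direction off chromosome 5 with the largest log2 fold change and non-overlapping groups, the 5 per direction on chromosome 5 with the shift removed, and those at the limit of 500. Gene lists and motifs were not used, because neither annotation nor sequence of mm9 was used. No 2 libraries looked like copies: with counts halved, pairs within a group had a chi-square of 1.53 to 1.84 per degree of freedom, and pairs across groups 3.97 to 4.85. Exact permutation tests used SciPy 1.17.1.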

Additional observations from a re-analysis of the deposited data

How the results depend on the processing

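Off chromosome 5, the percent of members called lower was 18.7 to 22.2 with each library left out, the percent higher 2.58 to 4.22 and the median log2 fold change -0.13 to -0.10. Chosen by all 6 libraries, these were 7.17, 16.7 and 0.034, and chosen by the knockout libraries 1.47, 35.7 and 0.19; against control replicates 1, 2 and 3 held out of the choice the median was -0.025, -0.048 and -0.068, and 2.35% of the 250 densest were higher. On chromosome 5, the percent lower was 41.1 to 47.9, the percent higher 0 to 1.37 and the median -0.39 to -0.32 with each library left out. Chosen by all 6 libraries, 30% were lower, with a median of -0.16, and chosen by the knockout libraries 4.17% were lower and 8.33% higher, with a median of 0.062. With the shift removed, 15.1% were lower and 6.85% higher, with a median of -0.077. The percent higher was 1.37 with total counts or trended offsets and 2.67 with no upper length limit, and the median of the 250 densest was -0.39. Chosen by all 6 libraries, the members' share of reads differed by 0.148 percentage points, and by 0.126 without chromosome 5, in place of -0.304, and 8% lay on chromosome 5, or 4.8% chosen by the knockout libraries. Nothing in the labels pairs libraries of the same number, and their deviations from group means correlated at 0.00601 to 0.0661; with the replicate block, the percent higher on chromosome 5 was 1.37, in place of 0. The block changed no other summary of the members by over 1.5 times. Over all peaks, each library left out gave 2220 to 2367 higher and 1741 to 1996 lower calls. With each library left out, 2 of the 12 densest peaks changed sign, both without a call in any of these fits: the log2 fold change ran from -0.15 to 0.076 on chromosome 10 from 25145831 to 25148408, above 0 without knockout replicate 3, and from -0.20 to 0.091 on chromosome 9 from 95695473 to 95697050, above 0 without control replicate 2 or 3 or knockout replicate 1. The choices of length limits on calls, and of members on position, were added after seeing the data. Narrow peaks, with a median of 166 counts per library, limit what can be called.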

Other observations

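Broad peaks, left out by the upper length limit, also reached these densities. Of 596 peaks of 12.5 kb or more, 46 were at least as dense as the 500th member, the densest with 29.9 CPM per kb, and their median was 14.1 CPM per kb. Without the limit, 42 of them would have been among the 500.

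Dense peaks can also be split by the distance to the next peak. Off chromosome 5, 51 members had no other peak within 50 kb, with 15 called lower, 1 higher and a median log2 fold change of -0.24, while 127 members with a neighbour within 1 kb had 33 lower, 8 higher and a median of -0.08. Over all peaks within the limits off chromosome 5, 8.16% of the isolated ones were called lower and 13.7% higher, and 8.35% and 11.1% of those with a neighbour within 1 kb, with medians of 0.01 and -0.01. Control density chose the members of both classes, which favours falls, and this split is not given for the choice by all 6 libraries. The difference between the classes was not tested. A single member lay on a random contig of chromosome 9, with 19.6 ± 2.54 CPM per kb in control and 16.6 ± 1.31 CPM per kb in knockout libraries (SD, n = 3 each).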
